A study of Mus musculus with 8 samples.

Results

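The genes described here are 10 genes of the unfolded protein response, the program that cells run when proteins misfold in the endoplasmic reticulum (ER). They were taken by symbol from the deposited gene table: the ER chaperone and folding genes Hspa5, Hsp90b1, Calr and Pdia4, the ER quality control genes Dnajb9 and Herpud1, and the regulators Xbp1, Atf4, Ddit3 and Trib3. All 10 were among the 38026 genes of the table, each as 1 protein-coding row, and all 10 passed the filter on low values that left 15262 genes for testing. The data are bulk RNA-seq of C57BL/6 mouse cells captured on magnetic beads against CD11b, a surface integrin of microglia, macrophages, monocytes and granulocytes. The 5 TAM libraries (tumor-associated microglia and macrophages) came from medulloblastoma, a tumor of the cerebellum, of mice at postnatal day 61, 62, 66, 68 and 90. The 3 microglia libraries came from normal cerebral cortex at postnatal day 60. All cells went through the same papain digestion, myelin removal and Trizol RNA extraction. The labels name neither the tumor model and its genotype nor the number of mice per library, and tissue (tumor or cortex), age and disease differ together between the groups. P-values set the difference between the groups against the spread of these libraries within the groups. They therefore cannot assign a difference to the tumor, and they cannot be carried over to other mice.

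The unfolded protein response starts from 3 sensors in the ER membrane, IRE1 (gene Ern1), PERK (Eif2ak3) and ATF6 (Atf6), which the chaperone BiP, the product of Hspa5, keeps inactive until unfolded proteins draw it away. IRE1 splices the Xbp1 transcript so that it encodes an active transcription factor for secretory pathway and ER degradation genes, and ATF6 is cut in the Golgi by site-1 and site-2 proteases and induces chaperones. PERK phosphorylates eIF2alpha, which lowers translation in general but raises translation of Atf4, and ATF4 then induces Ddit3 (CHOP), Trib3 and amino acid genes. In macrophages the pathway is known to be engaged by secretory load and by lipid loading. Gene-level RNA values show neither Xbp1 splicing nor Atf4 translation, so they do not measure sensor activity.

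Regulatory sequences of the pathway are short and can be read in the promoters. The RefSeq promoter windows on GRCm38.p6 (250 bases before to 50 bases after the start of each gene) were found for all 10 genes and searched on both strands for 4 motifs: the ER stress response element ERSE (CCAAT, any 9 bases, then CCACG), its second form ERSE-II (ATTGG, any 1 base, then CCACG), the UPRE core (TGACGTGG), and the ATF4-C/EBP element CARE (TGATGNAA). An exact ERSE was in 0.119% of 32851 promoters, among them those of Hspa5, Hsp90b1 and Calr. An exact ERSE-II was in 0.0365% of promoters, among them that of Herpud1. The motifs were chosen after values were seen, and a link of the matches to the values in TAMs was not tested. The sequences below are all the matches, in these 4 genes, whose printed bases lay wholly before the RefSeq start. Each runs 5′ to 3′ on the strand of its gene, with the fixed letters of the motif in capitals, and the distance is that of the motif's first base before the RefSeq start of the gene. For Hspa5 that start is base 34772090, inside the gene as the table places it, so its window lies within the table's gene span.
Hspa5, ERSE at 65 bases, plus strand, chr2:34772020-34772048: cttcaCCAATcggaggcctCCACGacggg
Hsp90b1, ERSE at 212 bases, minus strand, chr10:86705633-86705661: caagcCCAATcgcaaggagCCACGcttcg
Hsp90b1, reversed ERSE at 107 bases, minus strand, chr10:86705528-86705556: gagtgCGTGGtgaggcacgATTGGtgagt
Calr, reversed ERSE at 162 bases, minus strand, chr8:84847070-84847098: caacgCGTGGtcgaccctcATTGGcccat
Herpud1, ERSE-II at 52 bases, plus strand, chr8:94386368-94386396: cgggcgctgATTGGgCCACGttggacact
Herpud1, reversed CARE at 112 bases, plus strand, chr8:94386307-94386334: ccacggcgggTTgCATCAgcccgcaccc
The CARE letters were also in the window of Trib3, 14 bases after its start, and in 3.97% of all promoters. The UPRE core was in 0.676% of promoters and in none of the 10 windows. No motif of the 4 was found in the windows of Pdia4, Dnajb9, Xbp1, Atf4 and Ddit3. A match is a description of letters and not a measured binding site.

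Values are TPM (transcripts per 1000000, a length-corrected share of each library's RNA), which carry no read depth, so counting intervals could not be set. Most genes were listed lower in TAMs: the median log2 fold change of all 15262 tested genes was -0.65 on log2(TPM + 1), on which 56.4% of genes were called lower and 8.22% higher in TAMs (limma, Benjamini-Hochberg adjusted p of 0.05). The 3 abundant features Mir6236, Mir6240 and Gm15662 together held 13.6 to 25.6% of the TPM in TAM libraries and 3.20 to 15.3% in microglia libraries. With them left out of the TPM total, the median log2 fold change was -0.50 over 15735 tested genes. For a second scale, rescaled TPM, every library was divided by 1 factor, the median over genes of its ratio to the geometric mean of the 8 libraries. On it the median was -0.04, with 25.1% of genes called lower and 24.6% higher. The dividing factors were 0.749 to 0.8075 in TAM replicates 1 to 4, 1.05 in TAM replicate 5 and 1.17 to 1.56 in microglia, so the scales differ for every gene. TAM replicate 5 also had 14242 genes at 1 TPM or more, against 12683 to 12866 in the other TAM libraries. Log2 values carry a pseudocount of 1, which understates the change of low genes such as Trib3.

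Unfolded protein response genes did not rise in TAMs on TPM: 7 of 10 were lower, 3 were not called and none was higher, with a median log2 fold change of -0.87. That share is read against the 56.4% of all genes that were lower. On rescaled TPM the same genes split, with 3 lower (Herpud1, Hspa5 and Ddit3), 2 higher (Calr and Pdia4) and 5 not called, and a median of -0.15. Lower on both scales were Herpud1, Hspa5 and Ddit3, against 25.1% of all genes, and none was higher on both, against 8.17%. Herpud1 was the gene with the largest difference of the 10 on either scale, and the 1 whose call held on both scales without any single library. In bulk samples, fewer cells of a type and less RNA per cell cannot be told apart.

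**Figure D1:**
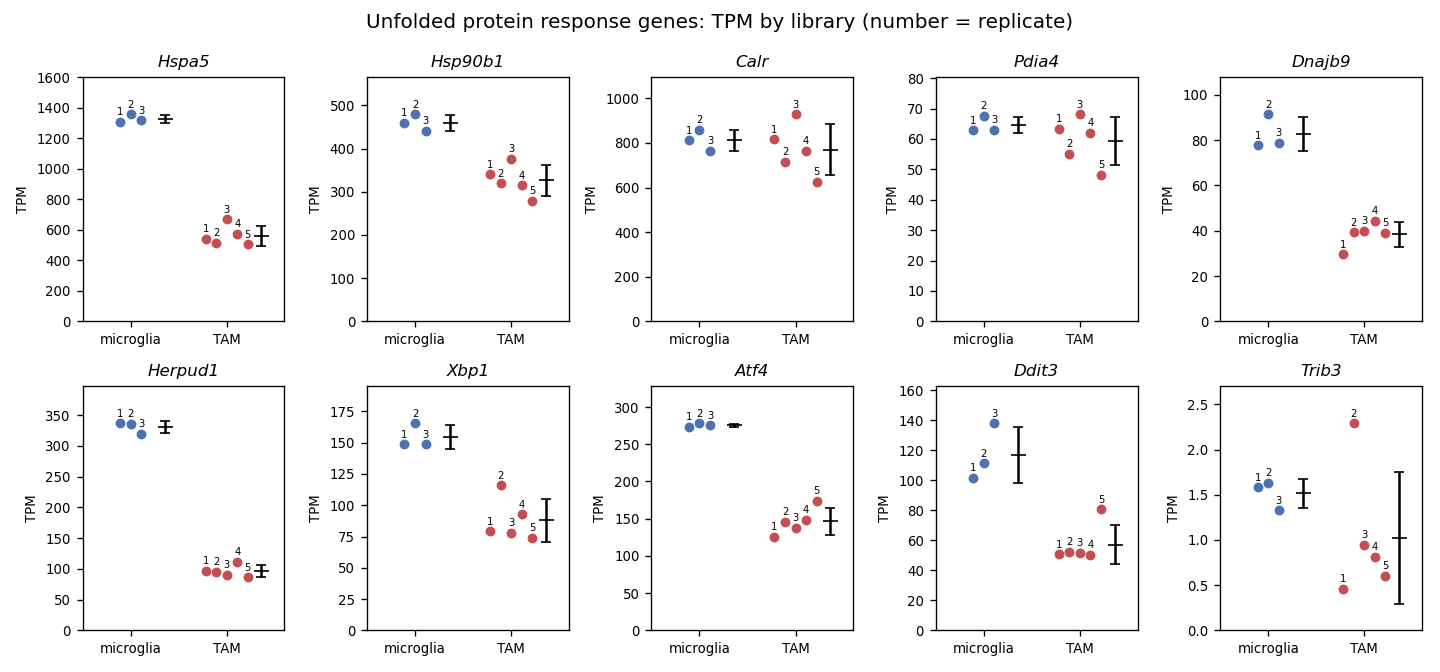
TPM (linear axis from 0) of the 10 genes in the 3 microglia libraries (blue) and 5 TAM libraries (red), with replicate numbers, and the mean and SD beside each group in black. Hspa5 stands at 506 to 669.6 in TAMs and 1307 to 1357 in microglia, while Calr and Pdia4 overlap between the groups.

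Hspa5 encodes BiP, the Hsp70 chaperone of the ER (chromosome 2, 34771970 to 34777547 on mm10). It was at 1307, 1357 and 1318 TPM in microglia replicates 1 to 3 and at 542, 515, 669.6, 573 and 506 TPM in TAM replicates 1 to 5. Every TAM library lay below every microglia library, and the microglia libraries were close together. The mean fell from 1327 ± 26.3 TPM (SD, n = 3) to 561 ± 66.0 TPM (SD, n = 5), a log2 fold change of -1.25 with an SE of 0.12 (limma, adjusted p = 0.000114). Rescaled, Hspa5 was at 872 to 1115 in microglia and 483 to 829 in TAMs, still without overlap, and its log2 fold change was -0.53 (adjusted p = 0.0499). Its rescaled call held without TAM replicate 3 (adjusted p = 0.0430) or 5 (0.0443). Leaving out any of the other 6 libraries ended it (adjusted p = 0.0556 to 0.105, the highest without microglia replicate 1).

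Hsp90b1 encodes GRP94, the Hsp90 chaperone of the ER, which folds Toll-like receptors and integrins (chromosome 10, 86690209 to 86705509). Its TPM was 459.6, 479 and 442 in microglia and 340.4, 319.8, 377, 315 and 279.7 in TAM replicates 1 to 5. The groups did not overlap, but the gap was narrow beside that of Hspa5. Hsp90b1 was lower on TPM (log2 fold change -0.50, SE 0.11, limma adjusted p = 0.00444), whereas on rescaled TPM its value was 0.22 and it was not called (adjusted p = 0.385). Leaving the 3 abundant features out of the TPM total also ended the call (-0.31, adjusted p = 0.0753). Its exons overlap 270 bases of 1810014B01Rik on the other strand, a row of at most 9.10 TPM, and 84 bases of Gm15344 on its own strand, and whether the libraries kept strand is not stated.

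Calr encodes calreticulin, a calcium-binding lectin chaperone that retains unfolded glycoproteins (chromosome 8, 84841850 to 84846934). It was at 812, 860.3 and 766 TPM in microglia and at 817, 716, 928, 766 and 626 TPM in TAMs. The groups overlapped, with TAM replicate 3 above and TAM replicates 2, 4 and 5 below the microglia range. Its log2 fold change was -0.09 on TPM (SE 0.14, limma adjusted p = 0.586), and it turned to 0.63 and was called higher on rescaled TPM (adjusted p = 0.0482). In TAMs Calr had the highest TPM of the 10 genes, ahead of Hspa5, and in microglia Hspa5 had the highest.

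Pdia4 encodes ERp72, a protein disulfide isomerase (chromosome 6, 47796141 to 47813430). Microglia had 62.9, 67.6 and 63.0 TPM and TAMs 63.3, 55.1, 68.1, 62.0 and 48.1 TPM. As for Calr, the groups overlapped and TAM replicate 3 was the highest library. The log2 fold change was -0.13 on TPM (SE 0.12, limma adjusted p = 0.374) and 0.58 on rescaled TPM, where it was called higher (adjusted p = 0.0453). The rescaled calls of Calr and Pdia4 both held without TAM replicate 5 (adjusted p = 0.00477 and 0.00207) and both were lost without any 1 of the other 7 libraries (adjusted p = 0.0622 to 0.181).

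Herpud1, an ER membrane protein that assembles the machinery of ER-associated degradation (chromosome 8, 94386438 to 94395377), showed the clearest difference. It was at 336, 336 and 319 TPM in microglia and at 97.1, 95.3, 90.7, 112 and 86.0 TPM in TAMs. The libraries of each group lay close together and far from the other group. The mean was 3.44 times higher in microglia (331 ± 9.85 TPM, SD, n = 3) than in TAMs (96.2 ± 9.75 TPM, SD, n = 5). Herpud1 was lower by limma on TPM (log2 fold change -1.78, SE 0.10, adjusted p = 1.66e-05) as well as rescaled (-1.06, SE 0.18, adjusted p = 0.00228). The log2 fold change on TPM was above that of 11.3% of all tested genes. Without each library in turn it was -1.83 to -1.74 on TPM and -1.19 to -0.94 rescaled, with adjusted p of at most 0.00884.

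Dnajb9 encodes ERdj4, a J-domain partner that brings BiP to IRE1 (chromosome 12, 44205897 to 44210068). Its TPM was 77.8, 91.4 and 78.7 in microglia and 29.6, 39.3, 40.0, 44.5 and 39.0 in TAMs. All TAM libraries lay below the microglia libraries, with TAM replicate 1 the lowest. Dnajb9 was lower on TPM (log2 fold change -1.09, SE 0.14, limma adjusted p = 0.000378) and had -0.38 on rescaled TPM, which did not pass (adjusted p = 0.0584) and passed without TAM replicate 4 (adjusted p = 0.0314).

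Xbp1 encodes the transcription factor that IRE1 activates by splicing (chromosome 11, 5520659 to 5525893). It was at 149, 165 and 149 TPM in microglia and at 79.0, 116, 77.9, 92.7 and 74.1 TPM in TAMs. TAM replicate 2 was the highest TAM library and still below microglia. The log2 fold change was -0.82 on TPM (SE 0.15, limma adjusted p = 0.00204) and -0.11 on rescaled TPM, not called (adjusted p = 0.692). Spliced and unspliced Xbp1 are 1 row in the table.

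Atf4 encodes the transcription factor of the PERK branch and of the wider integrated stress response (chromosome 15, 80255184 to 80257540). The 3 microglia libraries were at 274, 278 and 275 TPM, and the TAM libraries at 126, 146, 138, 148 and 174 TPM. The microglia values spread by 0.795% of their mean (SD), the TAM values by 12.2%, and the groups did not overlap. Atf4 was lower on TPM (log2 fold change -0.92, SE 0.11, limma adjusted p = 0.000315) and had -0.20 on rescaled TPM, not called (adjusted p = 0.148).

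Ddit3 encodes CHOP, a transcription factor known for promoting cell death under lasting ER stress (chromosome 10, 127290774 to 127296288). It was at 101.5, 111 and 138 TPM in microglia and at 50.6, 52.5, 51.5, 50.3 and 80.8 TPM in TAMs. Of the TAM libraries 4 lay within a narrow band and TAM replicate 5 stood above them, below all microglia. The log2 fold change was -1.03 on TPM (SE 0.18) and -0.32 on rescaled TPM, with limma adjusted p of 0.00163 and 0.0488. Rescaled, the call held without TAM replicate 5 (adjusted p = 0.0234) or microglia replicate 2 (0.0199) and was lost without any 1 of the other 6 libraries (0.0779 to 0.128). Ddit3 shares 68 exon bases with Mars on the other strand.

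Trib3, a pseudokinase induced by ATF4 and CHOP, was low, near the 1 TPM used as the filter on low values (chromosome 2, 152337422 to 152344032). It was at 1.58, 1.63 and 1.33 TPM in microglia and at 0.461, 2.29, 0.946, 0.811 and 0.603 TPM in TAMs. TAM replicate 2 lay above microglia and the other 4 below. Its log2 fold change was -0.38 on TPM (SE 0.27) and 0.01 on rescaled TPM, with limma adjusted p of 0.245 and 0.976. Without TAM replicate 2 it was called lower on TPM (log2 fold change -0.57, adjusted p = 0.0278), and not on rescaled TPM (-0.20, adjusted p = 0.380). With mouse age as a covariate it was called lower on TPM (-0.69, limma adjusted p = 0.0355). TAM replicate 2 was from day 90 and all other libraries from day 60 to 68. The age covariate thus mainly sets apart that same library and is no separate check.

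**Figure D2:**
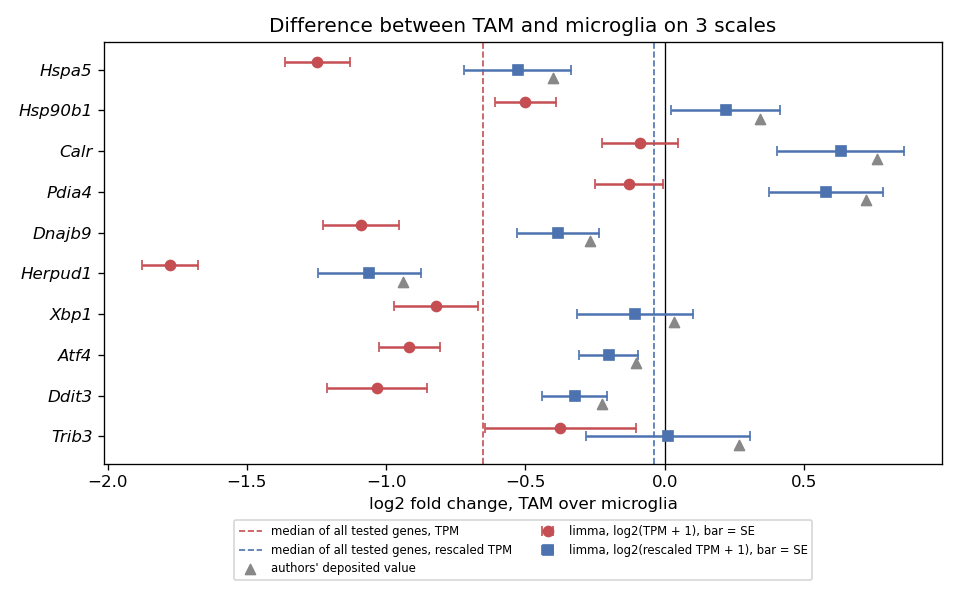
Log2 fold change of TAM over microglia for the 10 genes on 3 scales: limma on log2(TPM + 1) (red circles, bars SE), limma on rescaled TPM (blue squares, bars SE) and the DESeq2 values of the authors' deposited table (gray triangles, no error given). Dashed lines mark the median of all tested genes, at -0.65 and -0.04; Herpud1 lies left of both lines on all 3 scales, and the circles and squares of Calr and Pdia4 lie right of the line of their own scale.

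In the authors' deposited table, whose DESeq2 p-values were adjusted here by Benjamini-Hochberg, Herpud1 was lower (log2 fold change -0.94, adjusted p = 0.000372). In the same authors' deposited table Calr (0.76, adjusted p = 0.012) and Pdia4 (0.72, adjusted p = 0.0151) were higher, and the other 7 genes were not called. Over the 27039 genes with a p-value in the authors' deposited table, 16% were called lower and 17.6% higher. These values come from the same 8 libraries and add no independent support. Of the 10 genes, 7 had every TAM library below every microglia library on TPM, against 49.7% of tested genes, and none had every TAM library above, against 7.97%. On rescaled TPM Hspa5 and Herpud1 lay below without overlap, against 24.6%, and none of the 10 lay above, against 24.1%.

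The balance among these transcripts within a library does not depend on the scaling. The ratio of Calr to Hspa5 TPM was 0.581 to 0.634 in microglia and 1.24 to 1.51 in TAMs, so its mean was 2.24 times higher in TAMs. For Pdia4 the ratio to Hspa5 was 0.0478 to 0.0498 in microglia and 0.0951 to 0.117 in TAMs, 2.18 times higher. For Hsp90b1 it was 0.335 to 0.353 in microglia and 0.550 to 0.628 in TAMs, 1.68 times higher. Herpud1 went the other way, with 0.242 to 0.257 in microglia and 0.135 to 0.195 in TAMs. The ratios of these 4 genes did not overlap between the groups, while those of Dnajb9, Xbp1, Atf4, Ddit3 and Trib3 did. Of all tested genes, 41.8% had a ratio to Hspa5 that was higher in all TAM libraries than in all microglia libraries and 7.82% a lower one, so a higher ratio was common and a lower one, as for Herpud1, less so. The ratios show unequal change of 2 transcripts and not which of them changed.

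**Figure D3:**
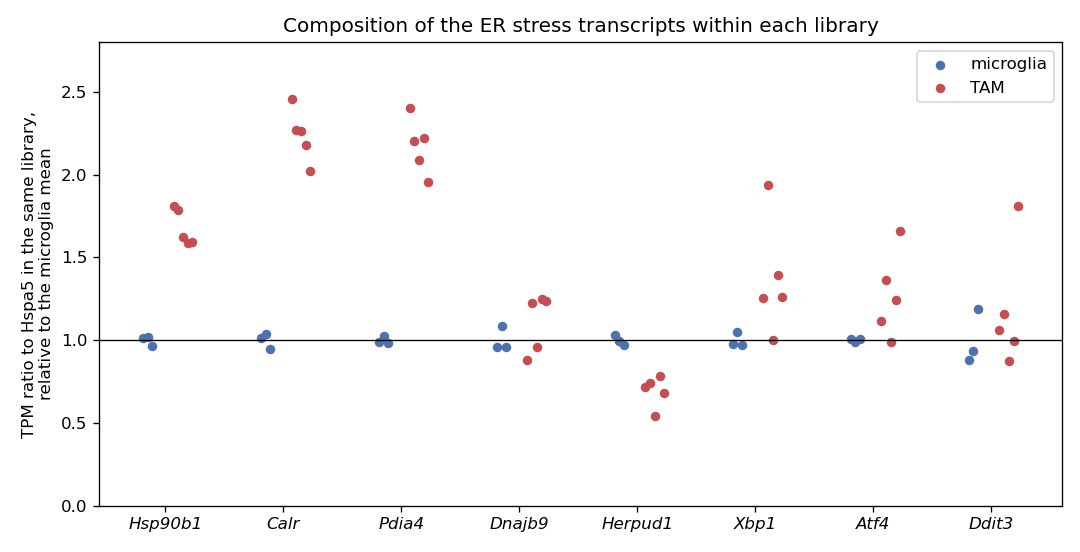
TPM of 8 genes divided by the TPM of Hspa5 in the same library, relative to the microglia mean (linear axis from 0), with 1 point per library for microglia (blue) and TAMs (red). Calr, Pdia4 and Hsp90b1 lie above the microglia points in all 5 TAM libraries and Herpud1 below them; the other 4 genes overlap.

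Among the TAM libraries the 4 chaperone genes kept the same extremes: TAM replicate 3 was the highest and TAM replicate 5 the lowest for Hspa5, Hsp90b1, Calr and Pdia4 on TPM. On rescaled TPM the highest library for Pdia4 was TAM replicate 1 (84.5 against 84.3 in TAM replicate 3). The summed TPM of 6 immunoglobulin and plasma cell markers (Igkc, Ighm, Jchain, Mzb1, Sdc1 and Prdm1, chosen after their values were seen) had the same extremes, with 827.8 in TAM replicate 3 and 209.5 in TAM replicate 5, and it was 389.8 to 412.3 in microglia. Of the single markers, Mzb1 had these extremes (2.70 and 0.0544). Igkc and Jchain were highest in TAM replicate 3 and lowest in TAM replicate 2 (28.0 and 1.34). Ighm was highest in TAM replicate 1 (329) and Sdc1 lowest in TAM replicate 3 (0.526). In microglia the sum was mostly Ighm (368 to 393, above every TAM library), with Igkc at 0.948 to 9.90. Of 5 tested, 2 were higher and 1 lower on TPM, against 8.22% and 56.4% of all genes. Plasma cells are rich in ER chaperones, and the part of these cells in the chaperone values was not tested. TAM replicate 5 was also the lowest TAM library for Herpud1 and Xbp1 and the highest for Ddit3 on both scales. For Atf4 it was the highest on TPM (174) and the lowest on rescaled TPM (166). TAM replicate 2, from the oldest mouse (day 90), was the highest for Xbp1 and Trib3 on both scales. The spread relative to the mean (SD, n = 5) ran from 10.1% for Herpud1 to 23.2% for Ddit3 in TAMs, and was 71.7% for Trib3. In microglia it ran from 0.795% for Atf4 to 16.1% for Ddit3. Rescaling widened the SD of Hspa5 from 26.3 to 127 in microglia and from 66.0 to 129 in TAMs. It narrowed the SD of Ddit3 from 13.2 to 5.68 and that of Atf4 from 17.8 to 8.91 in TAMs. Neutrophil markers summed to 533 TPM in TAM replicate 2, to 71.3 to 191 TPM in TAM replicates 1, 3, 4 and 5, and to 15.7 to 32.0 TPM in microglia; Ly6g, Mpo and Elane were under 1 TPM in all TAM libraries. The part of these cells in the Xbp1 and Trib3 values was not tested.

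The rest of the pathway was described with 6 lists of known genes, of which 135 of 141 symbols were in the table. Their counts are read against the shares of all tested genes, 56.4% lower and 8.22% higher on TPM and 25.1% and 24.6% on rescaled TPM. Among the 10 genes of ER stress sensors and their proteases, 7 were lower and 1 higher on TPM (median log2 fold change -0.69), and on rescaled TPM none was lower and 1 higher (median 0.00). Atf6 had a log2 fold change of -0.93 (limma, adjusted p = 0.00183) and the site-1 protease gene Mbtps1 -0.84 (adjusted p = 0.000607), neither called on rescaled TPM (-0.25 and -0.14). Eif2ak3, which encodes PERK, averaged 12.2 ± 2.42 TPM (SD) over the 5 TAM and 21.4 ± 1.98 TPM over the 3 microglia libraries and was lower on TPM (limma adjusted p = 0.00400) but not on rescaled TPM (-0.10). Ern1, which encodes IRE1, did not pass on either scale (-0.48 and 0.18, limma adjusted p = 0.0629 and 0.351). The 1 gene higher on both scales was Rtcb, the RNA ligase that rejoins Xbp1 after IRE1 cuts it (0.56 and 1.27). Its call on TPM was lost without any 1 microglia library.

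Of 28 ER chaperones and folding enzymes, 11 were lower and 4 higher on TPM (median log2 fold change -0.28), and 1 was lower and 11 higher on rescaled TPM (median 0.39). The 4 higher on both scales were P4hb (0.31 and 1.03), a protein disulfide isomerase, Sdf2l1 (0.56 and 1.27), an ERdj3 partner, Sil1 (0.57 and 1.26), a nucleotide exchange factor of BiP, and Ppib (0.34 and 1.06), the ER cyclophilin. Hspa5 was the 1 lower on both. The calls on TPM of Ppib and Sdf2l1 held in 1 and 3 of the 8 fits that left out a library, and those of P4hb and Sil1 in 6 and 8. The share of chaperones lower on TPM (11 of 28) was below that of all genes (56.4%). Calu, a calcium-binding ER protein, and Ganab, a glucosidase subunit, were lower on TPM (-0.78 and -0.49) and not called on rescaled TPM (-0.07, and 0.22 with the sign turned). The 11 higher on rescaled TPM became 21 without TAM replicate 5, 5 without microglia replicate 2 and 7 without replicate 3. On TPM, 2 were higher when TAM replicate 3 or 4 was left out and 1 when microglia replicate 2 or 3 was.

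Of 22 genes of ER-associated degradation, 11 were lower and 2 higher on TPM (median log2 fold change -0.43), and 2 were lower and 7 higher on rescaled TPM (median 0.27). Herpud1 and Edem1, a mannosidase-like protein that hands glycoproteins to degradation, were the 2 lower on both scales. Edem1 averaged 40.7 ± 11.2 TPM (SD) over the 5 TAM and 107 ± 3.72 TPM over the 3 microglia libraries, with log2 fold changes of -1.42 and -0.71 (limma adjusted p = 0.000921 and 0.0353). Its rescaled call held in 3 of the 8 fits that left out a library. On rescaled TPM the groups overlapped for Edem1, with TAM replicate 1 at 71.3 and microglia replicate 2 at 66.3. In the authors' deposited table Edem1 was not called (-0.58, DESeq2 adjusted p = 0.0999). Vcp, the ATPase that pulls substrates from the ER, rose on both scales (0.66 and 1.37, limma adjusted p = 0.000604 and 0.000111), and so did the lectin gene Os9 (0.39 and 1.10), whose call on TPM held in 1 of the 8 fits that left out a library, where that of Vcp held in 8. On TPM, 1 gene was higher without any 1 library other than TAM replicate 2. The 7 higher on rescaled TPM became 4 without microglia replicate 2 and 3 without replicate 3, and 1 gene was lower without TAM replicate 3, 4 or 5 or microglia replicate 3.

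The list of XBP1-dependent secretory pathway genes had the largest share of genes higher on rescaled TPM among the 6 lists: 20 of 31 were higher and none lower (median log2 fold change 0.55), against 24.6% and 25.1% of all genes. On TPM 5 were higher and 11 lower (median -0.16). The 5 higher on both scales were Sec61b (0.77 and 1.49) of the ER translocon, Ssr4 (0.64 and 1.36) and Ssr2 (0.35 and 1.06) of the translocon-associated complex, the oligosaccharyltransferase subunit Dad1 (0.40 and 1.11) and the signal peptidase subunit Spcs1 (0.27 and 0.99), whose call on TPM held in 4 of the 8 fits that left out a library. Sec62 and Sec11a were lower on TPM (-0.95 and -0.48) and not called on rescaled TPM (-0.25, and 0.23 with the sign turned). Without microglia replicate 2 or 3 the 20 became 10. On TPM 2 were higher without microglia replicate 3. The authors' deposited table had 21 of the 31 higher and none lower.

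**Figure D4:**
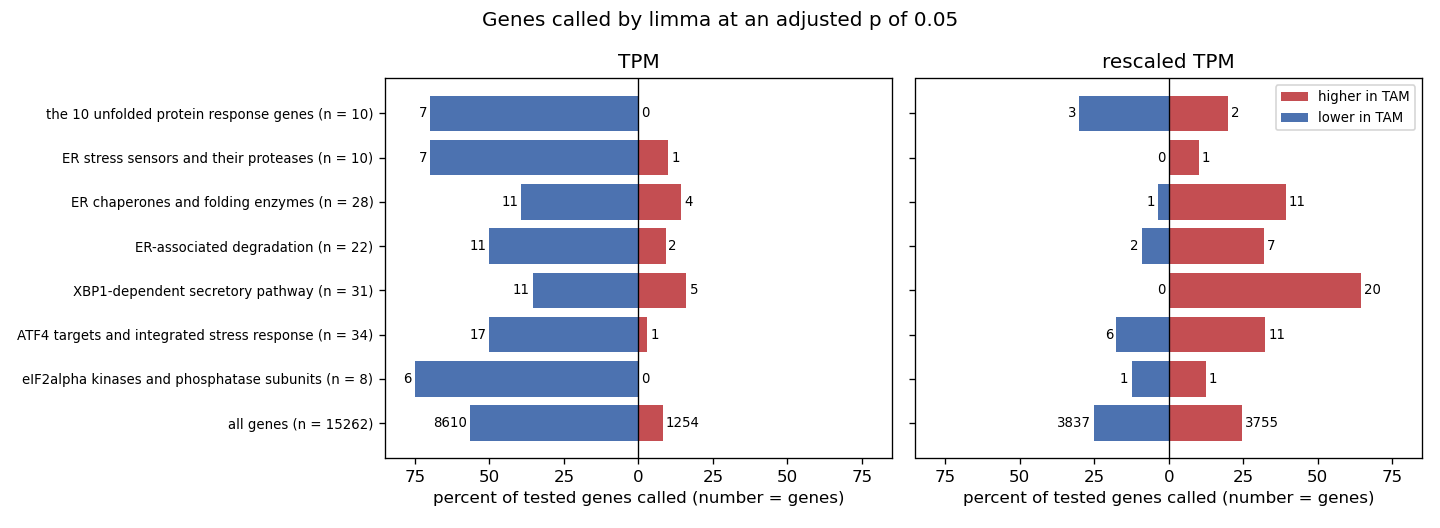
Percent of tested genes called lower (blue, to the left) or higher (red, to the right) in TAMs by limma on TPM (left panel) and rescaled TPM (right panel), with the number of genes at each bar, for the 10 genes, the 6 pathway lists and all genes. On rescaled TPM the secretory list has 20 of 31 genes higher, and the 10 unfolded protein response genes have 2 higher and 3 lower.

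Of 34 tested ATF4 targets and integrated stress response genes, 17 were lower and 1 higher on TPM (median log2 fold change -0.62), and 6 were lower and 11 higher on rescaled TPM (median 0.02). The 6 lower on both scales, 17.6% of the list against 25.1% of all genes, were Ddit3, Bbc3, Atf3, Slc7a5, Slc7a1 and Cebpg. Bbc3, which encodes the cell death protein PUMA, averaged 9.86 ± 1.79 TPM (SD) over the TAM and 75.8 ± 9.26 TPM over the microglia libraries (log2 fold change -2.83 on TPM, limma adjusted p = 1.76e-05, and -2.14 rescaled). Atf3, a stress-induced transcription factor, averaged 349 ± 56.4 TPM against 1438 ± 266 TPM (-2.04, limma adjusted p = 6.98e-05, and -1.32 rescaled). The amino acid transporter genes Slc7a5 and Slc7a1 had -2.79 and -1.88 on TPM and -2.10 and -1.24 rescaled. In microglia replicates 1 to 3 Slc7a5 was at 50.2, 115 and 111 TPM and Slc7a1 at 8.72, 29.7 and 21.7 TPM. Summed endothelial markers were at 694, 2235 and 1688 TPM in the same libraries. TAM libraries ranged over 5.82 to 26.3 TPM for Slc7a5 and 2.66 to 7.15 TPM for Slc7a1. The part of endothelial cells in the values of Slc7a5 and Slc7a1 was not tested. Cebpg, a partner of ATF4, had -1.12 and -0.43. The 1 gene higher on both scales was Psat1, an enzyme of serine synthesis, which averaged 78.3 ± 29.05 TPM against 14.3 ± 4.76 TPM (2.32, limma adjusted p = 0.00135, and 3.00 rescaled). Among the other targets, Asns ranged over 0.916 to 3.19 TPM in TAMs and 0.754 to 1.78 TPM in microglia and was called on rescaled TPM alone (0.78, adjusted p = 0.0318), a call that held in 2 of the 8 fits that left out a library. Chac1, at 0.195 to 1.58 TPM in TAMs and 0.0513 to 0.526 TPM in microglia, did not pass the filter on low values. Sesn2 did not pass on either scale (-0.49 and 0.15, limma adjusted p = 0.0645 and 0.636). The 11 higher on rescaled TPM became 7 without microglia replicate 2 or 3.

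Of 8 eIF2alpha kinases and phosphatase subunits, 6 were lower and none higher on TPM (median log2 fold change -0.70), and 1 was lower and 1 higher on rescaled TPM (median -0.02). Eif2ak4, which encodes the amino acid sensor GCN2, was the 1 lower on both scales (-1.10 and -0.44). Its rescaled call was lost without microglia replicate 3. Ppp1r15a, which encodes GADD34 and ends the eIF2alpha signal, averaged 199.8 ± 23.2 TPM (SD) over the TAM and 363 ± 27.4 TPM over the microglia libraries. It was lower on TPM (-0.86, limma adjusted p = 0.000548) and not called on rescaled TPM (-0.15), as was Ppp1cb, the catalytic phosphatase subunit (-0.83 and -0.13). Ppp1r15b, its constitutive counterpart, had -0.51 on TPM (adjusted p = 0.00754) and 0.19, not called, on rescaled TPM.

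Other transcripts differed between the same groups. Their counts are read against the shares of all tested genes, 56.4% lower and 8.22% higher on TPM and 25.1% and 24.6% on rescaled TPM. Of 13 early response genes, which tissue dissociation is known to induce, 13 were lower in TAMs on TPM and 9 on rescaled TPM, and their summed TPM was 2708 to 3937 in TAMs and 11255 to 11602 in microglia. None was under 1 TPM in all TAM libraries. The part of dissociation in the values of Atf3, Ddit3, Ppp1r15a and Herpud1 was not tested. Endothelial markers were lower in 12 of 12 (18.2 to 105 TPM summed in TAMs, 694 to 2235 in microglia), mural markers in 9 of 9 (5.99 to 23.6 and 298 to 823) and astrocyte markers in 8 of 10 (14.9 to 76.9 and 107 to 706). Oligodendrocyte markers were lower in 9 of 9 (47.0 to 58.7 and 167 to 866). Under 1 TPM in all TAM libraries were the mural markers Acta2, Myh11, Kcnj8 and Des, the astrocyte markers Aqp4 and Gjb6 and the oligodendrocyte markers Mog and Cldn11. The part of these cells in the microglia values was not tested. On rescaled TPM the counts lower were 12, 8, 8 and 7 for these 4 lists. Among the microglia libraries replicate 1 had the lowest and replicate 2 the highest of the 4 sums. Within microglia the spread (SD over the mean) was 0.795% for Atf4, 1.98% for Hspa5, 2.98% for Herpud1, 4.10% for Hsp90b1, 4.16% for Pdia4, 5.81% for Calr, 6.26% for Xbp1, 9.19% for Dnajb9, 10.8% for Trib3 and 16.1% for Ddit3. On TPM, replicate 2 was the highest microglia library for Hspa5, Hsp90b1, Calr, Pdia4, Dnajb9, Xbp1, Atf4 and Trib3. Neuron and granule lineage markers summed to 10.8 to 72.9 TPM in TAMs and 23.8 to 87.0 in microglia (of 9 tested, 4 higher and 3 lower on TPM, 5 and 3 rescaled). T and NK cell markers summed to 3.09 to 6.31 TPM in TAMs and 4.92 to 10.5 in microglia. Of 9 microglia and macrophage markers, none was under 1 TPM in all TAM libraries, and 5 were lower and 1 higher in TAMs on TPM (5 and 2 rescaled). The 5 of 9 lower on TPM was near the share of all genes (56.4%). Summed TPM of these markers was 3876 to 9040 in TAMs and 14939 to 17934 in microglia.

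The 5 genes of at least 10 TPM whose profiles over the 8 libraries lay nearest to that of Hspa5 were Cnot8, Commd8, Cep63, Mgme1 and Tbc1d17. Their distances, measured on log2(TPM + 1) after centering each gene, were 0.215 to 0.37, against a median of 1.40 over 8252 genes. Within the 10 genes, Dnajb9 was the nearest to Hspa5 (0.54) and Calr (1.603) and Pdia4 (1.55) were the farthest, with Trib3 below the level for this measure.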

How the data were processed

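Per the file headers, the deposited table holds TPM for each library and the authors' own mean normalized signal, log2 fold change and unadjusted p-value. FastQC, DESeq2 and mm10 appear among the tools and builds of the submitters' processing notes. Not given in the sources used here: aligner, quantifier, annotation and strandedness. Groups come from the sample titles, and 3 unnamed columns were not used. Each library's TPM summed to between 990422 and 997832, and TPM keeps no depth. The 15262 genes that reached 1 TPM in 3 or more libraries were tested with limma 3.58.1 (R 4.3.3, intensity trend) on log2(TPM + 1), with all 8 libraries and no covariate, and p-values were adjusted by Benjamini-Hochberg over all tested genes. The fit was tested on simulated data in which a small set of genes was changed and the scaling of libraries was not. That simulation cannot judge the choice between TPM and rescaled TPM. The 10 genes, the lists and the rescaling were chosen with earlier results of these data known. Named genes are the 10, a set of 9 regulators, the 5 nearest to Hspa5 and, per list, the called genes of lowest p. The rule allowed up to 6 per list, and 2 were used, a number lowered after the values were seen. The genes called the same way on both scales, the motifs and the ratios to Hspa5 were also chosen after values were seen. Promoters are from RefSeq (GRCm38.p6). GENCODE M21 exons were used for overlaps, and blastn 2.17.0 for near-identical copies, of which the pseudogenes of Calr and Dnajb9 stayed under 0.2 TPM. Alternatives covered scaling, filter, pseudocount, trend, mouse age, a replicate block and each library left out in turn. The B and plasma cell marker list is given in part: 1 item is not reported here.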

Additional observations from a re-analysis of the deposited data

Results flagged for a closer look

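In a group of 5 TAM libraries, 44 of the genes named in the text were searched for 1 library standing apart (Dixon's test, gap over range above 0.71), which chance gives in about 1 group of 20. This picked out 5 genes. Ddit3 was at 80.8 TPM in TAM replicate 5, against 50.3 to 52.5 TPM in the other 4 (gap share 0.926). On rescaled TPM the same library was at 77.2 against 63.5 to 67.6. Cebpg was at 25.7 TPM in TAM replicate 5, with the next library at 20.0, but on rescaled TPM it lay within the other 4 (24.6 against 23.3 to 26.1). Eif2ak4 was at 10.9 TPM there, with the next at 7.43, and at 10.4 against 9.20 on rescaled TPM. Trib3 was at 2.29 TPM in TAM replicate 2, with the next at 0.946, and at 2.84 against 1.17 on rescaled TPM. Sesn2 was at 10.6 TPM there, with the next at 6.54, and at 13.2 against 8.11 on rescaled TPM.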

How the results depend on the processing

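Several directions on TPM depend on the scaling. On rescaled TPM the log2 fold change turned for Calr (0.63), Pdia4 (0.58), Hsp90b1 (0.22), Trib3 (0.012), Ern1 (0.18), Ganab (0.22), Sec11a (0.23), Ppp1r15b (0.19) and Sesn2 (0.15). Ubxn4 of the degradation list and Srp72 and Kdelr1 of the secretory list were called in opposite directions on TPM and rescaled TPM. So were 219 of all 15262 tested genes. These list genes were left out of the genes named with values after values were seen. Of all genes 3755 were then higher and 3837 lower, against 1254 and 8610 on TPM. Rescaled counts higher and lower were 2 and 3 for the 10 genes, 11 and 1 for chaperones, 7 and 2 for ER-associated degradation, 20 and 0 for the secretory list, 11 and 6 for ATF4 targets, 1 and 1 for the eIF2alpha list, with 0 sensors lower. Leaving 3 abundant features out of the TPM total gave Calr 0.11 and Pdia4 0.062, 5 ATF4 targets and 1 eIF2alpha gene higher, and 7 chaperones lower, and it ended the call of Hsp90b1, with 6 of the 10 genes lower.
In the authors' deposited table the log2 fold change had the other sign from TPM for Calr (0.76), Pdia4 (0.72), Hsp90b1 (0.34), Trib3 (0.27), Xbp1 (0.034), Calu (0.051), Eif2ak3 (0.002), Ern1 (0.33), Ganab (0.34), Ppp1r15b (0.30), Sec11a (0.34) and Sesn2 (0.32). Its calls higher and lower were 4763 and 4324 for all genes, 2 and 1 for the 10 genes, 15 and 0 for chaperones, 7 and 1 for degradation, 21 and 0 for the secretory list, 13 and 7 for ATF4 targets and 2 and 1 for the eIF2alpha list, with 0 sensors lower. With mouse age as a covariate 2 ATF4 targets were higher, Trib3 was called and 8 of the 10 genes were lower, and with no filter or no intensity trend 1 degradation gene was higher.
Same-numbered deviations from the group means correlated at 0.15, 0.014 and -0.051 for replicates 1 to 3. In pair 1 alone, each library was the other's best match. These 3 correlations cannot decide whether the replicate numbers pair the samples. A replicate block on TPM gave 7 of the 10 genes lower, moved Calr to 0.007, and gave 2 chaperones, 1 degradation gene and 2 secretory genes higher, with P4hb (adjusted p = 0.078), Os9 (0.145) and Ppib (0.162) among the calls lost. The replicate block with rescaled TPM, added after the data were seen, gave Calr 0.81, Pdia4 0.73, Hsp90b1 0.39, Trib3 0.18, Xbp1 0.019, Ern1 0.19, Ganab 0.34, Ppp1r15b 0.21, Sec11a 0.29 and Sesn2 0.35. It gave, higher and lower, 3177 and 3131 of all genes, 2 and 1 of the 10 genes, 16 and 0 chaperones, 5 and 2 degradation genes, 19 and 0 secretory genes, 10 and 5 ATF4 targets and 1 and 1 eIF2alpha genes, with 0 sensors lower.
Leaving out each library in turn, over TPM and rescaled TPM together, the log2 fold change ran from -0.16 to 0.78 for Calr, -0.18 to 0.73 for Pdia4, -0.55 to 0.35 for Hsp90b1, -0.57 to 0.12 for Trib3, -0.93 to 0.025 for Xbp1, -0.64 to 0.27 for Ern1, -0.53 to 0.30 for Ganab, -0.55 to 0.22 for Ppp1r15b, -0.51 to 0.29 for Sec11a and -0.64 to 0.28 for Sesn2. Over the same fits 894 to 3943 of all genes were higher and 2144 to 9243 lower. For the 10 genes 0 to 2 were higher and 1 to 8 lower, for sensors 0 to 3 and 0 to 8, for chaperones 1 to 21 and 0 to 12, for degradation 1 to 8 and 1 to 12, for the secretory list 2 to 25 and 0 to 11, for ATF4 targets 1 to 12 and 4 to 20, and for the eIF2alpha list 0 to 2 and 0 to 6. Except where the scaling itself or a fit of fewer samples was the change, the cause was not tested.
The read depth of each library is unknown. The authors' deposited table gives only mean normalized counts over the libraries, such as 45600 for Hspa5 and 58.7 for Trib3. The 3 microglia libraries limit the precision, and the rescaled calls of Hspa5, Calr, Pdia4 and Ddit3 lie close to the threshold. Which scale is nearer to the RNA content per cell was not tested.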
